A study of Mus musculus with 170 samples.

Results

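Neutrophil-attracting chemokines and colony stimulating factors were followed in mouse lung and heart after exposure to particles from burned wildland fuels. The group held 7 genes, the chemokine genes Cxcl1, Cxcl2, Cxcl3 and Cxcl5 and the colony stimulating factor genes Csf1, Csf2 and Csf3, of 21450 gene symbols in the count table. Their rows were found by symbol. Cxcl2 was measured by 2 probes and Csf1 by 3, which were summed, and each of the other members by 1 probe.

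All animals were female mice of CD1, an outbred stock with no genetic modification named in the labels. Each mouse received fluid into the airways by oropharyngeal aspiration, in which liquid placed at the back of the throat is drawn into the lungs. In the smoke groups 50 µL of saline carried particulate matter at 2 mg/mL from red oak, peat, pine needles, pine or eucalyptus. Each fuel was burned in a flaming and in a smoldering phase, which gave 10 smokes. Controls received saline alone, and a positive control group received bacterial lipopolysaccharide (LPS), whose dose the labels do not give. Lung groups of 4 h and 24 h held 6 mice for every smoke and for saline, and 4 mice for LPS. Heart groups, all of 24 h, held 6 mice each after saline and after flaming or smoldering red oak or peat. The titles number the animals: each of the 140 lung libraries is a separate mouse, and the 30 hearts come from mice whose 24 h lungs were measured too. RNA came from whole tissue, in which fewer cells of a type and less RNA per cell cannot be told apart.

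CXC chemokines of this group bind the receptor Cxcr2 on neutrophils and draw these cells out of blood into inflamed tissue. Epithelial cells, macrophages and endothelial cells of the lung make them when bacterial products, interleukin-1, tumor necrosis factor or interleukin-17 are sensed, largely through NF-kB, and their mRNAs are short-lived. The colony stimulating factors act on the cells that arrive and on their precursors: Csf3 (G-CSF) drives neutrophil production, Csf2 (GM-CSF) acts on neutrophils and macrophages and is required for alveolar macrophages, and Csf1 (M-CSF) maintains monocytes and macrophages and is made constitutively in many tissues.

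The 4 chemokine members lie together on chromosome 5, in a stretch of 7 genes in the order Cxcl5, Ppbp, Pf4, Cxcl3, Cxcl15, Cxcl1 and Cxcl2 in RefSeq. Promoter sequences were found in the RefSeq table (GRCm38.p6) for 5 of the 7 members, Cxcl1, Cxcl2, Cxcl3, Csf1 and Csf2, and not for Cxcl5 and Csf3. Below are the 250 bases before the annotated start of the 3 neighbouring chemokine genes, which share an identical NF-kB-type run, and of Csf2, which passed the test beside Cxcl1 and Cxcl2 after flaming peat smoke. Each is printed 5′ to 3′ on the gene's strand, and capitals mark matches to the NF-kB consensus decamer, searched on both strands. The windows are chr5:90890995-90891244 on the plus strand for Cxcl1, chr5:90903649-90903898 on the plus strand for Cxcl2, chr5:90785851-90786100 on the plus strand for Cxcl3 and chr11:54249900-54250149 on the minus strand for Csf2.
Cxcl1: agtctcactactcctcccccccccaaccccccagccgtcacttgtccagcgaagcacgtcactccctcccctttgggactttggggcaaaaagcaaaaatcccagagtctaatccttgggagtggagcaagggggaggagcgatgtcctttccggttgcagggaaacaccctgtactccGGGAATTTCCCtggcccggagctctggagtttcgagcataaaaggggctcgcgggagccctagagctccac
Cxcl2: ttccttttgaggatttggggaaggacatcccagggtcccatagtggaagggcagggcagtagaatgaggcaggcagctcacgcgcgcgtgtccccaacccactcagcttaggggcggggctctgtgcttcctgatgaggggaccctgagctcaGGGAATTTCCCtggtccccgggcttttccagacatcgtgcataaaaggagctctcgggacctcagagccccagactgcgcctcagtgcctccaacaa
Cxcl3: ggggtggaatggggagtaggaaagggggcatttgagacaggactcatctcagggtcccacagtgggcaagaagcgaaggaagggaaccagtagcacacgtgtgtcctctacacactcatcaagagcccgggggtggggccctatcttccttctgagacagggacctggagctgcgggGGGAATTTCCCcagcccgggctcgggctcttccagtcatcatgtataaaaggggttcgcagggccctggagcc
Csf2: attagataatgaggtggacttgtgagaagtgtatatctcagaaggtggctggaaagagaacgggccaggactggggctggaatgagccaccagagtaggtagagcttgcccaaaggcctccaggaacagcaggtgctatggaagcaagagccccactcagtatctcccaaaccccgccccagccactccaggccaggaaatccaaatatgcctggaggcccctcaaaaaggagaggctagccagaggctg

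The same 11 bases, GGGAATTTCCC, stood 71 to 61 bases before the start of Cxcl1, 97 to 87 before that of Cxcl2 and 73 to 63 before that of Cxcl3. Its first 10 bases match the decamer on the plus strand and its last 10 on the minus strand, so these matches overlap. Of 32841 promoter windows of this length, 14 held this run (0.0426%), and 3.9% held any match to the decamer. Csf1 held another match, GGAAAGTCCC, 154 to 145 bases before its start, a run found in 0.14% of the windows. No decamer match was found in the Csf2 window, which says only that these letters are not in these 250 bases. The AP-1 element TGANTCA, present in 6.75% of the windows, was found in none of the 5. Cxcl2 and Cxcl3 transcripts share a run of 157 identical bases in GENCODE vM21, and no other pair of members shares more than 23. Probe sequences were not used here, so reads of Cxcl2 and Cxcl3 could be split between them and their values are uncertain to that extent.

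Total counts ran from 4.43 M to 8.05 M over the 170 libraries, with a median of 6.59 M. Summed markers of lung tissue were 16101 to 84541 CPM (counts scaled to the normalised size of each library) in lung libraries and 10.2 to 145 CPM in heart libraries, and summed heart markers were 29377 to 53517 CPM in hearts and 41.9 to 1603 CPM in lungs, so every library matched its labelled tissue. In 6 lung libraries of 24 h, fewer than 13000 genes had a count. The libraries were on 2 plates by their titles: at 4 h every lung was on plate 1 except 5 of 6 of smoldering pine needles, at 24 h most groups had 1 lung on plate 1 and the rest on plate 2, and all 6 lungs of smoldering pine needles were on plate 1. For smoldering pine needles the plate and the smoke can therefore largely not be told apart. A gene was called when edgeR's quasi-likelihood test, adjusted over the 14458 lung genes of that contrast, gave a p under 0.05; p-values were not adjusted across contrasts. The 7 members passed the filter on low counts in lung, and Csf3 did so only through the LPS libraries, where it is high and therefore had to differ.

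LPS, which acts through Toll-like receptor signalling, gave the highest mean level of each member at both times. At 4 h, 7 of 7 members were called higher than in saline lungs, where 5.48% of all lung genes were, and 6 of them pass the filter without the LPS libraries too. At 24 h the count was again 7 of 7, against 7.58% of all genes. The median log2 change of the members was 5.76 at 4 h and 5.74 at 24 h, while that of all genes was -0.04 and -0.12. In each member the LPS lungs lay above every saline lung at both times. Non-overlap in this direction was found for 6.18% of all genes at 4 h and 7.38% at 24 h.

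Cxcl1, often taken as a mouse counterpart of human interleukin-8, stood at 488, 295, 245 and 339 CPM in the 4 LPS lungs of 4 h. Saline lungs of 4 h ranged from 3.12 to 18.0 CPM with a median of 5.41 CPM, well below all 4. The log2 change was 5.40 ± 0.66 (SE; adjusted p = 1.25e-10). Cxcl2, made in quantity by macrophages and by neutrophils themselves, stood at 692, 502, 397 and 508 CPM against 2.23 to 19.9 CPM in saline (median 4.98). Its log2 change was 6.22 ± 0.87 (adjusted p = 1.09e-08). All 4 lungs stood far above the saline range for both genes.

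Cxcl5, an epithelial chemokine of the lung, varied most among the LPS lungs. It stood at 1243, 227, 462 and 395 CPM at 4 h, against 3.75 to 17.6 CPM in saline (median 9.53), a log2 change of 5.76 ± 0.77 (adjusted p = 3.60e-09). Cxcl3 stood at 21.2, 7.96, 21.3 and 11.3 CPM. Only 6 Cxcl3 counts were found over the 6 saline lungs. The ratio of summed counts, each taken over the raw total counts of its group, was 86.5, with a 95% counting interval of 39.4 to 237. That interval covers counting error only.

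Among the colony stimulating factors Csf3 showed the widest contrast with its control level and Csf1 the narrowest. Csf3 stood at 12.3, 18.8, 16.4 and 7.34 CPM after LPS at 4 h, whereas the 6 saline lungs held 1 count in all. The ratio was 476, with a 95% counting interval of 84.9 to 18875, and the fitted change of Csf3 is no bound because it depends on the prior count. Csf2 stood at 67.9, 94.6, 84.7 and 81.5 CPM against 1.72 to 3.42 CPM in saline (median 2.52), with a log2 change of 4.99 ± 0.64 (adjusted p = 6.14e-10). It was the most even of the members among the LPS lungs. Csf1, already abundant at 30.02 to 111.4 CPM in saline (median 91.1), stood at 427, 597, 395 and 280 CPM, a log2 change of 2.32 ± 0.35 (adjusted p = 1.05e-07).

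At 24 h Cxcl1 stood at 108.8, 210.5, 112.3 and 90.93 CPM after LPS, with saline lungs at 0 to 5.12 CPM (median 2.02), and its log2 change was 5.74 ± 0.69 (adjusted p = 2.25e-11). Its mean was 130.6 ± 54.1 CPM after LPS (SD, n = 4) and 2.37 ± 1.72 CPM in saline (n = 6), against 341.7 ± 104.8 and 8.06 ± 5.94 CPM at 4 h. Cxcl2 changed by 6.54 ± 0.89 (adjusted p = 2.47e-09), Cxcl5 by 3.99 ± 0.72 (adjusted p = 8.08e-06), Csf1 by 1.80 ± 0.35 (adjusted p = 2.75e-05) and Csf2 by 3.91 ± 0.64 (adjusted p = 8.24e-07). Csf3 stood at 11.7, 45.3, 18.3 and 23.3 CPM with 5 counts over the saline lungs, a ratio of 141 (95% counting interval 59.97 to 437). Cxcl3 stood at 7.782, 12.04, 6.493 and 6.91 CPM with 1 saline count, a ratio of 248 (43.8 to 9850). The change of the LPS effect from 4 h to 24 h was tested as an interaction, and 0 of 7 members were called, with 0 at an unadjusted p under 0.05, against 0.581% of all genes called. Its largest value was that of Cxcl5, -1.77 ± 0.99 (adjusted p = 0.668).

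Receptors and upstream genes were taken from lists chosen for the pathway. Of 7 tested receptor genes 4 were called higher under LPS at 4 h and 5 at 24 h, with a median log2 change of 1.61 and 2.68. Over all lung genes 5.48% were called higher at 4 h and 7.58% at 24 h. Cxcr2, the receptor of the chemokine members, rose by 3.43 ± 0.56 at 4 h (adjusted p = 1.43e-06), Csf3r, the G-CSF receptor, by 2.85 ± 0.57 (adjusted p = 9.36e-05), and Csf2rb, the signalling chain of the GM-CSF receptor, by 1.61 ± 0.29 (adjusted p = 8.95e-06). Ackr1, the atypical endothelial receptor that binds many chemokines, rose by 5.15 ± 0.69 (adjusted p = 2.72e-09). Csf1r, the receptor of Csf1, was not called at 4 h (0.65 ± 0.24, adjusted p = 0.067) and rose by 1.28 ± 0.23 at 24 h (adjusted p = 9.88e-06). Csf2ra and Cxcr1 were not called at either time. Of 6 tested inducing cytokines 5 were called higher at 4 h and 5 at 24 h, among them Tnf (4.34 ± 0.53 at 4 h), Il1f9 (4.99 ± 0.68) and Il6 (4.83 ± 0.81). All 9 listed genes of NF-kB subunits, its feedback inhibitors and mRNA decay were called higher at both times, with a median of 1.84 and 2.00.

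The summed mRNA of neutrophil markers was higher with LPS. Of 13 neutrophil markers, which include Cxcr2 and Csf3r, 10 were called higher at 4 h and 11 at 24 h. The shares over all genes were 5.48% and 7.58%. Their summed level was 921 to 2163 CPM at 4 h against 213 to 559 CPM in saline, and 1383 to 2173 CPM against 145 to 301 CPM at 24 h. In the saline and LPS lungs no marker of the list was at 0 throughout; over the other lung groups, Mmp8 was at 0 in the 6 lungs of smoldering pine at 4 h. The part of neutrophils in the members' levels was not tested. Summed alveolar macrophage markers overlapped with saline at both times, at 541 to 4156 CPM against 418 to 3276 CPM at 4 h. At 24 h 1 of these 9 markers was called higher and 1 lower, against 7.58% and 4.51% of all genes.

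**Figure D1:**
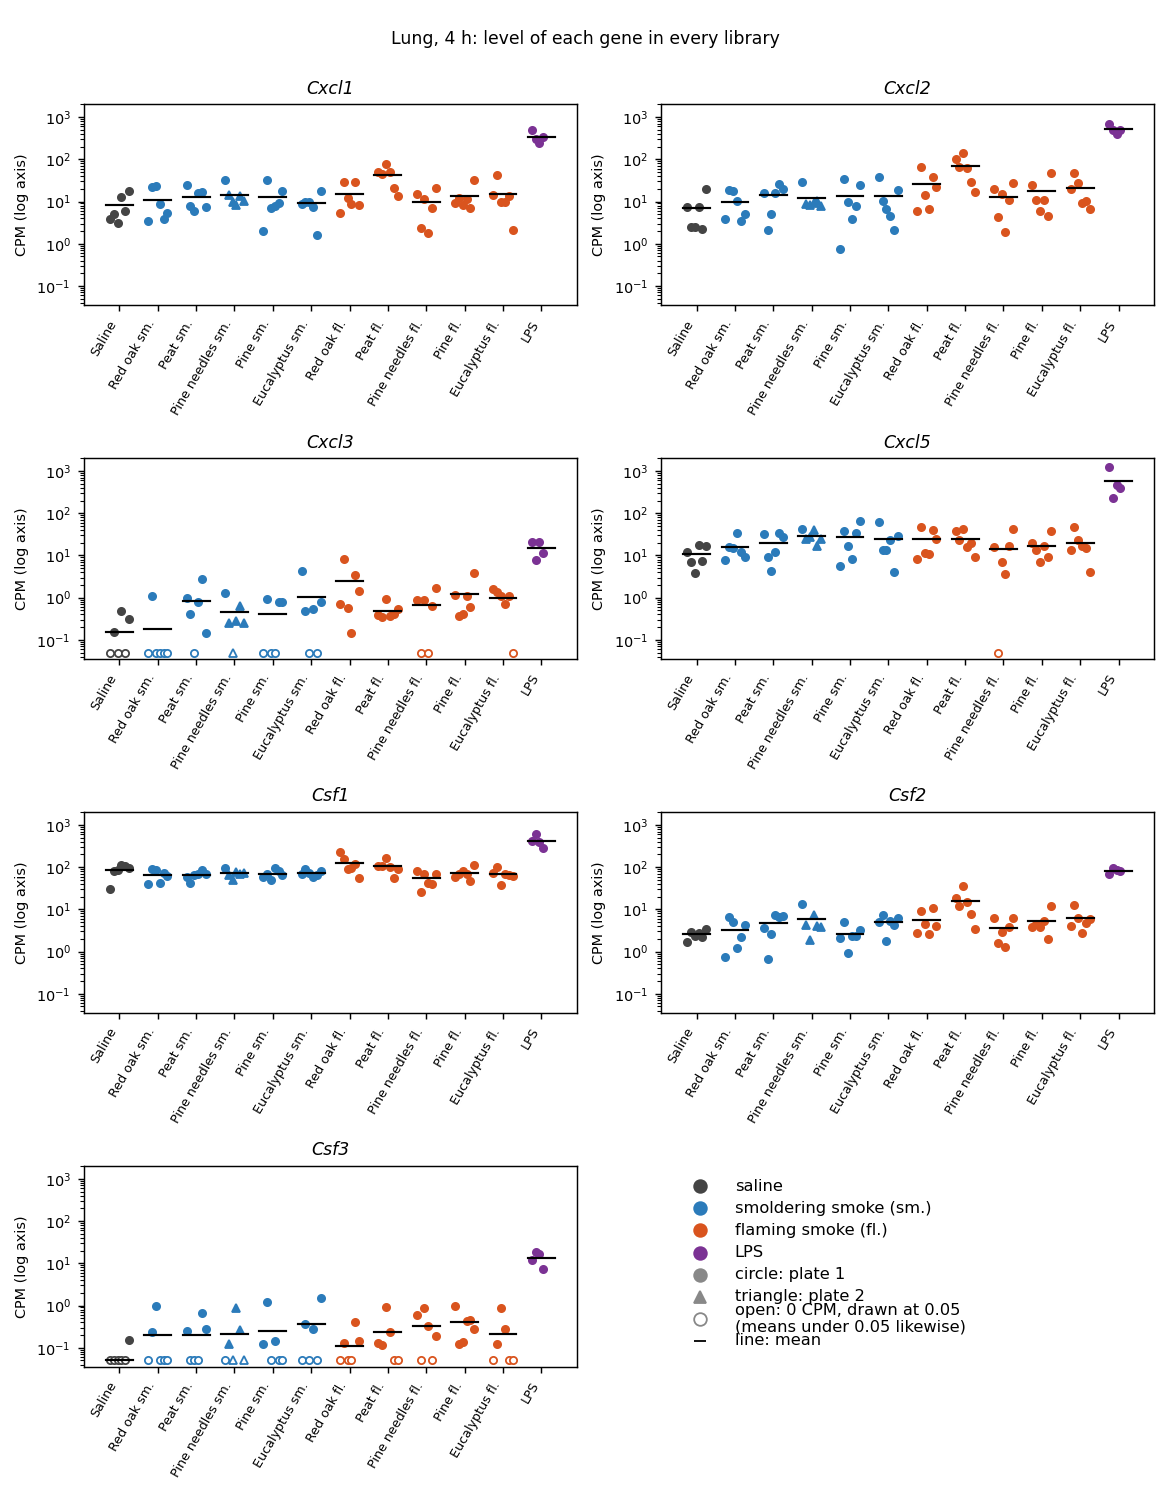
Level of each member in every 4 h lung library, in CPM on a log axis, by treatment. Points are mice, circles plate 1 and triangles plate 2, short lines are means, and open points at 0.05 are values of 0. The 4 LPS lungs lie above every saline lung in each panel, and flaming peat is the highest smoke by mean for Cxcl1, Cxcl2 and Csf2.

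Flaming peat smoke was the only smoke after which a member was called at 4 h, and 3 were: Cxcl1, Cxcl2 and Csf2, of 7. Among all lung genes 0.29% were called higher in this contrast. The other 4 members had positive changes that did not pass. The order of the 6 mice was much alike in the 3 genes.

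In the lungs of replicates 1 to 6, Cxcl1 stood at 50.9, 46.1, 76.2, 49.5, 21.4 and 13.9 CPM after flaming peat. Saline lungs of the same replicate numbers, which are other animals, stood at 3.82, 4.99, 3.12, 12.6, 5.83 and 18.0 CPM. Of the 6 exposed lungs 5 lay above every saline lung, and replicate 6 lay inside the saline range. The log2 change was 2.41 ± 0.57 (adjusted p = 0.0189).

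Cxcl2 stood at 101.2, 67.2, 140, 62.7, 28.4 and 16.7 CPM after flaming peat and at 7.46, 2.49, 2.50, 7.47, 2.23 and 19.9 CPM in saline. Again 5 of 6 exposed lungs lay above every saline lung and replicate 6 did not. The log2 change was 3.30 ± 0.75 (adjusted p = 0.01). The probe with number 63751 carried most of these counts, with a mean of 65.6 ± 43.7 CPM (SD, n = 6) against 6.61 ± 6.31 CPM in saline. The other probe, 29356, had 3.82 ± 2.50 CPM against 0.393 ± 0.610 CPM, and tested alone it changed by 3.19 without passing (adjusted p = 0.176).

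Csf2 stood at 18.9, 12.1, 36.6, 15.3, 7.97 and 3.40 CPM after flaming peat. In saline it was the least variable member, at 1.72, 2.96, 2.34, 2.70, 2.23 and 3.42 CPM. All but replicate 6 of the exposed lungs lay above the saline range, and replicate 6 lay just under its upper end. Separation with all 6 exposed lungs above saline was found for 0.892% of all genes in this contrast and for 0 of 7 members. The log2 change was 2.60 ± 0.57 (adjusted p = 0.00606).

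Of the other members after flaming peat, Cxcl5 ranged from 9.25 to 41.8 CPM (median 21.9), a change of 1.21 ± 0.64 (adjusted p = 1), and 4 of 6 lungs lay above every saline lung. Cxcl3 ranged from 0.342 to 0.914 CPM on 23 counts in all (1.502 ± 1.06) and Csf3 from 0 to 0.914 CPM on 11 counts (2.46 ± 1.29), both with an adjusted p of 1. Csf1 ranged from 56.8 to 169 CPM (median 104.2), a change of 0.30 ± 0.31 (adjusted p = 1). These 4 distributions overlapped with saline. At 4 h flaming peat was lower than LPS in 7 of 7 members, each called, where 3.22% of all genes were called lower. At 24 h this was again found in 7 of 7, against 7.54%. Csf3 passed the filter only through the LPS libraries, so its difference from LPS was fixed beforehand and 6 members bear on these counts. The mean level after flaming peat at 4 h was 19.1% of that under LPS for Csf2, 13.2% for Cxcl2 and 12.6% for Cxcl1. It was 24.7% for Csf1, whose saline level is high.

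Replicate 3 of flaming peat had the highest level of 7 of 7 members in its group, and replicate 6 the lowest of Cxcl1, Cxcl2, Cxcl5 and Csf2. Summed neutrophil markers were also highest in replicate 3 (584 CPM) and lowest in replicate 6 (216 CPM), against 213 to 559 CPM in saline. In saline, replicate 6 was likewise highest in Cxcl1, Cxcl2, Csf2 and the marker sum (559 CPM). The part of neutrophils in these levels was not tested. Over the group 0 of 13 neutrophil markers were called after flaming peat (3 at an unadjusted p under 0.05), with a median change of 0.69. Of 9 alveolar macrophage markers 0 were called, with a median of -0.55. Among all genes 0.297% were called in this contrast and 5.15% had an unadjusted p under 0.05.

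The 3 calls depended on single mice. Without flaming peat replicate 3 none of the 3 passed: the adjusted p was 0.105 for Cxcl1, 0.0587 for Cxcl2 and 0.0935 for Csf2, and the log2 changes were 2.17, 2.98 and 2.16. Csf2 alone passed without saline replicate 2, 3 or 5, where the adjusted p was 0.0756 to 0.111 for Cxcl1 and 0.0572 to 0.0593 for Cxcl2. Cxcl1 also missed without saline replicate 1 (adjusted p = 0.0704).

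Upstream genes after flaming peat at 4 h had positive changes that did not pass. Of 6 inducing cytokines 0 were called and 6 were positive, with a median of 1.24. Il6 changed by 2.47 ± 0.72 (adjusted p = 0.165), Il1f9 by 1.96 ± 0.58 (adjusted p = 0.182) and Tnf by 1.22 ± 0.46 (adjusted p = 0.52). Of the 9 NF-kB and mRNA decay genes 0 were called, 9 were positive and 5 had an unadjusted p under 0.05, with a median of 0.49, against -0.04 for all genes. Nearest to the threshold were Relb (0.95 ± 0.26, adjusted p = 0.0851) and Tnfaip3 (1.39 ± 0.37, adjusted p = 0.086). Of 7 receptors 0 were called, with a median of 0.26. Among all genes 0.297% were called and 5.15% had an unadjusted p under 0.05.

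**Figure D2:**
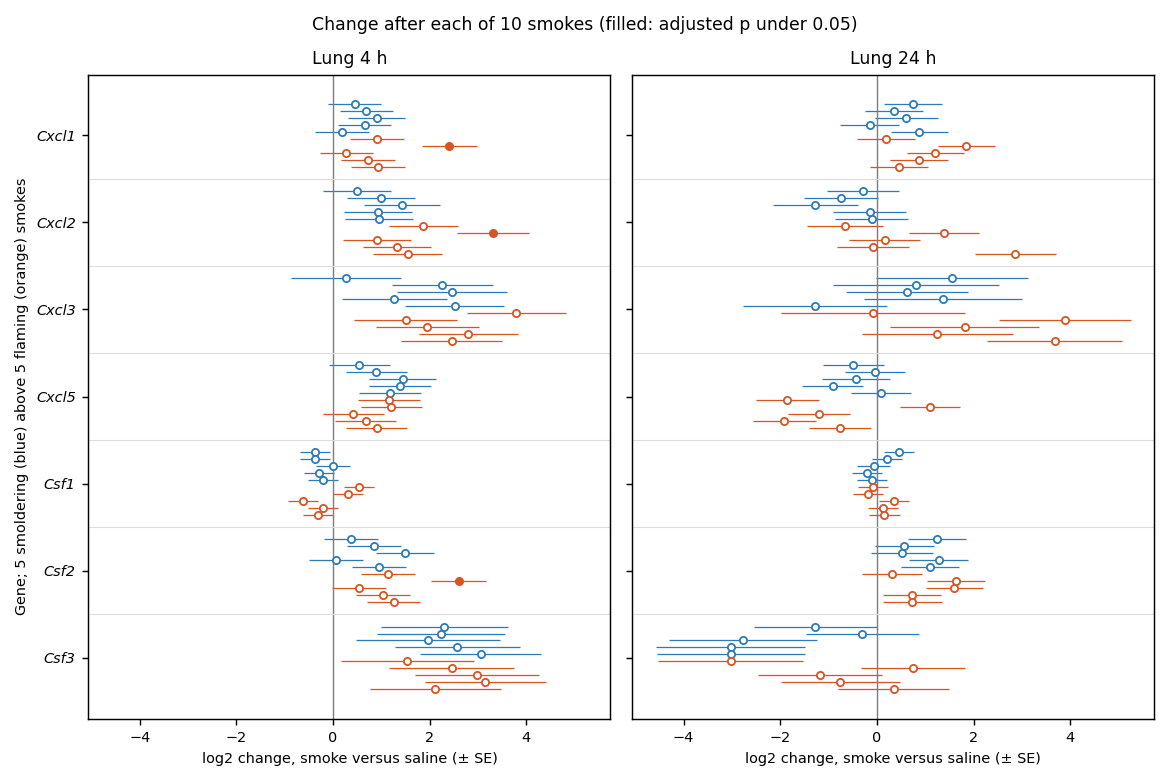
Log2 change of each member after each of the 10 smokes against saline, with its SE, in 4 h lung and in 24 h lung. Blue points are smoldering and orange points flaming smokes, and filled points have an adjusted p under 0.05. The 3 filled points are Cxcl1, Cxcl2 and Csf2 after flaming peat at 4 h, and at 4 h the points of 6 members lie above 0 for every smoke while those of Csf1 lie on both sides.

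Over the 10 smokes at 4 h, 3 of 70 pairs of member and smoke were called, against 0.0456% of all gene and smoke pairs, and 62 of 70 changes were positive, against 47.7% of all pairs. The 10 comparisons share the 6 saline lungs, so a low saline level raises all of them together and the positive changes are not separate observations. Changes with an unadjusted p under 0.05 were 21 of 70, against 5.05% of all pairs.

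Csf2 was the member with the most smoke lungs outside the saline range at 4 h: 40 of 60 lay above every saline lung. On average 12.7% of smoke lungs lay above every saline lung over all genes. Cxcl3 followed with 32 of 60, Cxcl5 with 27, Csf3 with 24, Cxcl2 with 18, Cxcl1 with 15 and Csf1 with 5.

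For Cxcl1 the mean level at 4 h was 42.997 ± 22.5 CPM (SD, n = 6 here and below) after flaming peat. It was 15.3 ± 14.1 after flaming eucalyptus, 15.2 ± 10.5 after flaming red oak, 14.7 ± 8.59 after smoldering pine needles, 13.3 ± 9.21 after flaming pine and 13.04 ± 7.25 after smoldering peat. It was 12.7 ± 11.1 after smoldering pine, 11.01 ± 9.027 after smoldering red oak, 9.75 ± 7.49 after flaming pine needles, 9.18 ± 5.14 after smoldering eucalyptus and 8.06 ± 5.94 in saline. Each smoke overlapped in range with the next group in this order, as neighbours did for every member at both times, and LPS (341.7 ± 104.8, n = 4) did not overlap with flaming peat.

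Cxcl2 followed a like order at the top, with 69.4 ± 45.9 CPM after flaming peat, 25.6 ± 23.6 after flaming red oak, 20.5 ± 15.96 after flaming eucalyptus and 17.5 ± 16.5 after flaming pine. The remaining smokes had means of 9.84 to 14.05 CPM, with flaming pine needles among them at 13.1 ± 9.39, and saline had 7.01 ± 6.79 CPM. After flaming red oak 3 of 6 lungs lay above every saline lung, and its log2 change of 1.87 ± 0.71 did not pass (adjusted p = 0.84).

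Cxcl3 differed from its neighbours in which smoke stood highest. Its largest change at 4 h was after flaming red oak, 3.79 ± 1.02 (adjusted p = 0.334), which did not pass. The levels in the 6 mice were 0.695, 8.44, 0.558, 0.147, 3.51 and 1.46 CPM and 5 of 6 lay above every saline lung. Replicate 2 exceeded the lowest LPS lung (7.96 CPM), the only smoke lung at 4 h in which a member did. In the same red oak mice Cxcl2 was highest in replicate 2 (66.9 CPM) and next in replicate 5 (38.9 CPM), as Cxcl3 was. Means of Cxcl3 after the other smokes were 0.180 to 1.24 CPM, with saline at 0.157 ± 0.200 CPM, so most values rest on few counts.

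Cxcl5 was highest after 2 smoldering smokes at 4 h, pine needles (29.3 ± 9.73 CPM) and pine (28.1 ± 22.6 CPM), with flaming peat next (24.8 ± 12.7 CPM) and saline lowest (10.7 ± 5.73 CPM). Of the smoldering pine needles lungs 5 of 6 lay above every saline lung, and the change was 1.44 ± 0.69 (adjusted p = 0.939). In this group 5 lungs were on plate 2, and all 6 saline lungs were on plate 1. CPM are not adjusted for plate, so plate and smoke can largely not be told apart here.

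Csf2 stood at 15.7 ± 11.6 CPM after flaming peat, 6.14 ± 3.58 after flaming eucalyptus, 5.76 ± 4.03 after smoldering pine needles, 5.68 ± 3.51 after flaming red oak and 5.30 ± 3.58 after flaming pine. It stood at 4.98 ± 1.87 after smoldering eucalyptus, 4.64 ± 2.78 after smoldering peat, 3.72 ± 2.22 after flaming pine needles, 3.33 ± 2.31 after smoldering red oak and 2.68 ± 1.37 after smoldering pine, with saline at 2.56 ± 0.597 CPM. Outside flaming peat the largest change was that of smoldering pine needles (1.49 ± 0.59, adjusted p = 0.939), where plate and smoke can largely not be told apart.

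Csf3 was near its detection limit after every smoke at 4 h, with 5 to 17 counts over 6 lungs and means of 0.113 to 0.399 CPM. Saline had 1 count in 6 lungs. At this depth a group of 6 with no count allows up to 0.0693 to 0.0905 CPM (3 counts over the group).

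Csf1 was the exception among the members at 4 h, with positive changes after 2 of 10 smokes, flaming red oak and flaming peat. Its mean was 124.1 ± 59.97 CPM after flaming red oak, 104.9 ± 36.4 after flaming peat and 85.04 ± 29.2 in saline, and 55.003 to 73.7 CPM after the other 8 smokes. The changes ran from -0.63 ± 0.31 after flaming pine needles (adjusted p = 0.414) to 0.55 ± 0.31 after flaming red oak (adjusted p = 0.997), and 0 were called.

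Flaming and smoldering were compared as the mean of 5 smokes each. At 4 h 0 of 7 members were called, while 2.39% of all genes were. Cxcl2 was higher after flaming by 0.83 ± 0.32 (adjusted p = 0.133) and Csf2 by 0.57 ± 0.25 (adjusted p = 0.188), without passing. These 2 members had an unadjusted p under 0.05, as did 19.2% of all genes. Within single fuels 0 of 35 pairs of member and fuel were called, against 0.0899% of all genes for peat, 0.0138% for eucalyptus and for pine needles and 0.00692% for pine and for red oak. For peat the flaming minus smoldering difference was 2.30 ± 0.71 in Cxcl2, 1.76 ± 0.54 in Csf2 and 1.72 ± 0.55 in Cxcl1 (adjusted p from 0.438 to 0.566). For red oak it was 3.53 ± 0.97 in Cxcl3 (adjusted p = 0.242) and 0.91 ± 0.31 in Csf1 (adjusted p = 0.509).

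A test of any difference among the 10 smokes at 4 h called 1 of 7 members, Csf2 (adjusted p = 0.0362), against 0.609% of all genes. Cxcl1 (adjusted p = 0.122) and Cxcl2 (adjusted p = 0.107) did not pass, though both and Csf1 did together with Csf2 when each time was fitted alone. Csf2 did not pass without flaming peat replicate 1, 2, 3 or 4, with adjusted p from 0.0661 to 0.57.

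**Figure D3:**
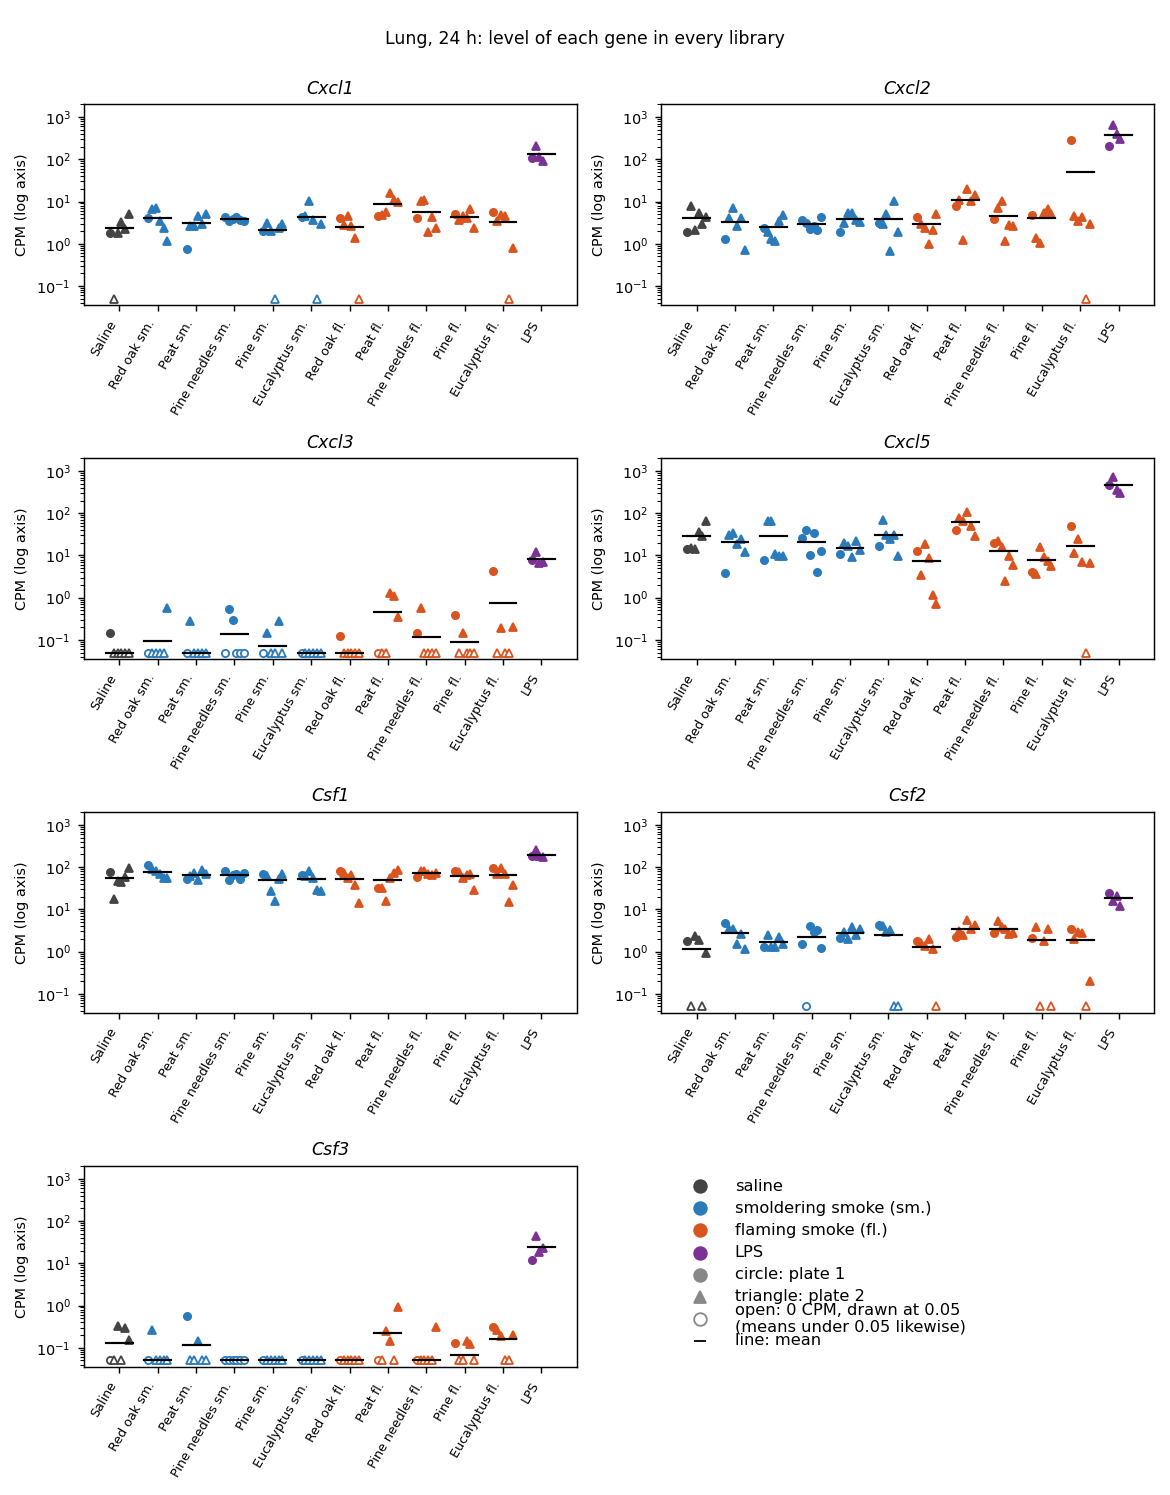
Level of each member in every 24 h lung library, in CPM on a log axis, drawn as for 4 h. The LPS lungs again lie above every saline lung. A single lung of flaming eucalyptus stands at 280 CPM of Cxcl2, and Csf3 is at 0 in most smoke lungs.

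At 24 h 0 of 70 pairs of member and smoke were called, against 0.187% of all pairs. At an unadjusted p under 0.05 there were 12 of 70, against 7.26% of all pairs. Positive changes were 39 of 70, against 50.4% of all pairs. DESeq2 called 1 pair, described below. Flaming peat was the highest smoke by mean for Cxcl1 and Csf2, as at 4 h, and here also for Cxcl5 and Csf3. The Csf3 mean of 0.219 CPM rested on 10 counts over 6 lungs, 8 of them in replicate 6.

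After flaming peat at 24 h Cxcl1 ranged from 4.55 to 16.3 CPM (median 7.79) against 0 to 5.12 CPM in saline, and 4 of 6 lungs lay above every saline lung. The change was 1.85 ± 0.59 (adjusted p = 0.479). Csf2 ranged from 2.28 to 5.58 CPM (median 3.24) against 0 to 2.29 CPM in saline, with 5 of 6 above it, and changed by 1.64 ± 0.60 (adjusted p = 0.576). Cxcl5 ranged from 28.3 to 106.5 CPM (median 58.4) against 13.8 to 65.2 CPM, and changed by 1.10 ± 0.62 (adjusted p = 0.67). Cxcl2 ranged from 1.24 to 19.5 CPM (median 10.6), a change of 1.39 ± 0.73 (adjusted p = 0.67). None of these passed, and 0.0692% of all genes were called higher in this contrast. The change of the flaming peat effect from 4 h to 24 h, tested as an interaction, called 0 of 7 members (0 at an unadjusted p under 0.05) against 0.0622% of all genes, with Cxcl2 at -1.92 ± 1.01 (adjusted p = 0.949).

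By mean level at 24 h, Cxcl1 stood at 8.68 ± 4.58 after flaming peat, 5.60 ± 3.92 after flaming pine needles, 4.41 ± 1.49 after flaming pine, 4.33 ± 3.39 after smoldering eucalyptus and 4.08 ± 2.32 after smoldering red oak (CPM, SD, n = 6). It stood at 3.86 ± 0.366 after smoldering pine needles, 3.20 ± 2.29 after flaming eucalyptus, 3.08 ± 1.55 after smoldering peat, 2.54 ± 1.69 after flaming red oak and 2.07 ± 1.12 after smoldering pine, with saline at 2.37 ± 1.72 CPM. Flaming peat was the only smoke of which over 2 lungs lay above every saline lung. Csf2 stood at 3.51 ± 1.24 after flaming peat, 3.48 ± 1.03 after flaming pine needles, 2.82 ± 1.36 after smoldering red oak, 2.79 ± 0.716 after smoldering pine and 2.43 ± 1.95 after smoldering eucalyptus. It stood at 2.18 ± 1.51 after smoldering pine needles, 1.86 ± 1.44 after flaming eucalyptus, 1.83 ± 1.61 after flaming pine, 1.67 ± 0.516 after smoldering peat and 1.31 ± 0.704 after flaming red oak, with saline lowest at 1.15 ± 0.998 CPM. Ranges of neighbouring groups overlapped in both orders.

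Csf2 was positive after 10 of 10 smokes at 24 h as at 4 h, with 32 of 60 smoke lungs above every saline lung, where the mean over all genes was 12.9%. After flaming pine needles 6 of 6 lungs did, at 2.62 to 5.32 CPM (median 3.13), and non-overlap in this direction was found for 0.699% of all genes in that contrast. The change was 1.60 ± 0.60 (adjusted p = 0.167).

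Cxcl5 stood below saline by fitted change after most smokes at 24 h. Its changes were negative after 8 of 10 smokes, and after flaming pine (3.68 to 15.5 CPM, median 6.61) and flaming red oak (0.720 to 18.4 CPM, median 6.10) 5 of 6 lungs lay below every saline lung (13.8 to 65.2 CPM, median 22.1). The changes were -1.92 ± 0.65 (adjusted p = 0.994) and -1.85 ± 0.65 (adjusted p = 0.134), and neither passed. Replicate 6 of each group had few detected genes, 12545 after flaming pine and 9886 after flaming red oak, against 13196 to 15400 in saline. Saline itself had a higher level of Cxcl5 at 24 h than at 4 h, by 1.41 ± 0.71 (adjusted p = 0.699), and a lower one of Cxcl1, by -1.67 ± 0.65 (adjusted p = 0.507). In saline 0 of 7 members and 0% of all genes were called between the times. All 6 saline lungs of 4 h were on plate 1 and 5 of 6 of 24 h on plate 2. Time and plate can therefore largely not be told apart in this comparison.

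Differences among the 10 smokes at 24 h were called in 3 of 7 members, Cxcl2 (adjusted p = 6.35e-05), Cxcl5 (adjusted p = 0.00184) and Cxcl3 (adjusted p = 0.016), against 18% of all genes. For Cxcl5 the means ran from 61.7 ± 28.6 CPM after flaming peat over 30.4 ± 20.8 after smoldering eucalyptus to 7.62 ± 4.38 after flaming pine and 7.59 ± 7.12 after flaming red oak. The mean of flaming minus smoldering smokes at 24 h called 0 of 7 members against 0.111% of all genes, with Cxcl2 at 1.25 ± 0.34 (adjusted p = 0.131) and Cxcl5 at -0.57 ± 0.28 (adjusted p = 0.771).

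The Cxcl2 and Cxcl3 results at 24 h rested on 1 mouse. Flaming eucalyptus replicate 1, the only lung of its group on plate 1, had 1803 Cxcl2 counts (280 CPM) and 4.20 CPM of Cxcl3, and the other 5 lungs had 0 to 4.43 CPM of Cxcl2 and at most 0.197 CPM of Cxcl3. Both Cxcl2 probes were high in it, with 1731 and 72 counts. It was the only smoke lung at 24 h in which a member exceeded the lowest LPS lung. Cxcl1 stood at 5.60 CPM there, the highest of its group (median 4.04 CPM), against 0 to 5.12 CPM in saline. Summed neutrophil markers were 971 CPM in this lung and 171 to 450 CPM in the others, and their part was not tested. Without this lung the change of Cxcl2 after flaming eucalyptus went from 2.86 ± 0.84 (adjusted p = 0.388) to -0.34 (adjusted p = 0.999), and among the 10 smokes only Cxcl5 was still called (adjusted p = 0.000711), with Cxcl2 at 0.135 and Cxcl3 at 0.16. The flaming minus smoldering change of Cxcl2 was 1.25 with this lung and 0.46 without it (adjusted p = 0.904). With the lung kept, Cxcl2 after flaming eucalyptus passed without a plate term (adjusted p = 0.0428) and in DESeq2 (adjusted p = 0.0367).

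Csf3 had no count in 6 lungs each of smoldering pine needles, smoldering pine, smoldering eucalyptus and flaming red oak at 24 h, which allows up to 0.0773, 0.07996, 0.0755 and 0.0751 CPM, for counting error only. Saline had 5 counts in 6 lungs. Csf1 at 24 h had changes from -0.21 to 0.45, 5 positive of 10, with 0 at an unadjusted p under 0.05.

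The genes whose group means ran most like a member's were sought over the 22 lung groups without LPS. They were taken among 13266 genes averaging 1 CPM or more over all lung libraries, LPS included. These correlations share libraries and depth and are given as a description. For Cxcl1 they were Rgs16 (Pearson r = 0.957), Ccl17 (0.937) and Ccl2 (0.928), for Cxcl2 Fosl1 (0.935), Mt2 (0.93) and Ccl17 (0.916), and for Csf2 Ccl7 (0.883), Ccl2 (0.882) and Cxcl1 itself (0.869). Ccl2 and Ccl7 are monocyte-attracting chemokines, Ccl17 attracts T cells, and Mt2 is a metallothionein. For Cxcl3 the genes were Hbegf (0.901), Lgi2 (0.891) and Myof (0.858), and for Csf1 Gbp5 (0.902), Smarcd1 (0.889) and Actn4 (0.886). Cxcl5 had no gene above 0.78, with Bcr first, and Csf3 none above 0.81, with Trabd first. Outside LPS all group means of Csf3 and most of Cxcl3 were under 1 CPM, so the correlations of these 2 members rest on few counts.

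**Figure D4:**
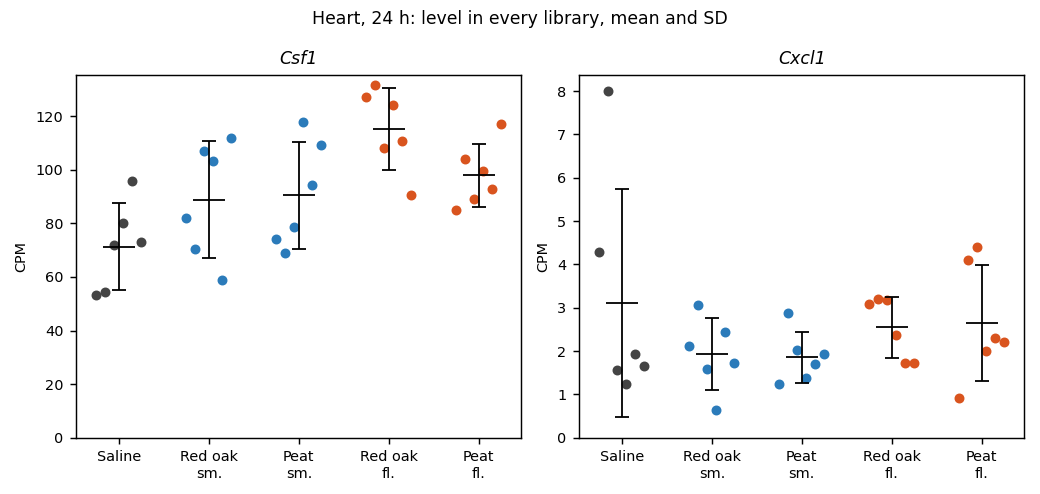
Level of Csf1 and Cxcl1 in every heart library at 24 h, in CPM on axes from 0, with mean and SD over 6 mice. Csf1 is higher after flaming red oak, at 90.6 to 131.7 CPM against 53.1 to 95.7 CPM in saline, and Cxcl1 is at 8.01 CPM or less in every heart.

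In heart, Csf1 and Cxcl1 were the 2 members abundant enough to test, among 11179 genes. Csf1 was called after 1 of 4 smokes, flaming red oak, in a contrast where 5.33% of all heart genes were called higher. It stood at 127.2, 131.7, 108.1, 124.05, 110.6 and 90.6 CPM after flaming red oak and at 53.1, 54.4, 71.9, 80.1, 95.7 and 72.9 CPM in saline. Of the 6 exposed hearts 5 lay above every saline heart. The log2 change was 0.69 ± 0.16 (adjusted p = 0.00559).

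The other 3 smokes gave Csf1 changes in heart of 0.46 ± 0.16 after flaming peat (adjusted p = 0.32), 0.34 ± 0.16 after smoldering peat (adjusted p = 0.197) and 0.32 ± 0.16 after smoldering red oak (adjusted p = 0.795). None passed, in contrasts where 0.0358%, 2.39% and 0% of all genes were called higher, and the difference between smokes in heart was not tested. Their levels overlapped with saline, at 85.2 to 117.3 CPM, 68.8 to 117.9 CPM and 58.7 to 111.7 CPM. Csf1r, the receptor of Csf1, rose with it after flaming red oak by 1.07 ± 0.21 (adjusted p = 0.00221), from 8.99 to 11.2 CPM in saline to 15.6 to 30.6 CPM with no overlap, where non-overlap in this direction was found for 2.24% of all heart genes. It rose too after smoldering peat, by 0.74 ± 0.21 (adjusted p = 0.0354), where 2.39% of all genes were called higher. In the lungs of the same mice at 24 h flaming red oak gave no call of Csf1 (-0.08 ± 0.31, adjusted p = 0.971) or Csf1r (-0.25 ± 0.21, adjusted p = 0.771).

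Summed heart muscle markers were lower in the flaming red oak hearts, at 29377 to 42812 CPM, than in saline hearts, at 44981 to 53517 CPM. Summed neutrophil markers were 66.9 to 89.2 CPM against 42.4 to 123.2 CPM, with Mmp8 at 0 in both groups and Ngp and Csf3r at 0 in saline. Summed lung markers were 10.2 to 145 CPM (median 21.9) in the flaming red oak hearts and 20.1 to 30.1 CPM in saline hearts. The part of these differences in the Csf1 result was not tested.

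Cxcl1 in heart ranged from 1.23 to 8.01 CPM in saline (median 1.80) and from 0.638 to 4.41 CPM over the 4 smokes, and was not called after any (changes of -0.74 to -0.23, adjusted p from 0.299 to 0.861). Cxcl2 had 65 counts over the 30 hearts and Cxcl5 was found in 26 of them, Csf2 had 8, Cxcl3 had 3 and Csf3 had 0. Hearts after LPS were not analysed here.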

How the data were processed

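RNA of 140 lung and 30 heart libraries was measured by TempO-Seq, in which probe pairs are ligated on their target RNA and sequenced, per the labels' protocols, which also name a 3′ library kit. The authors deposited whole-number counts per probe without normalization. Bowtie and DESeq2 are listed without a version, per the submitters' processing notes, and the genome build is not given in the sources used here. All 30146 probe rows were summed to 21450 symbols. One edgeR (version 4.0.16, R 4.3.3) quasi-likelihood fit covered the lung libraries, with group and plate, and another the heart libraries, with group alone. Both used TMM normalisation and edgeR's filter by group, with Benjamini-Hochberg adjustment over all genes of a contrast. CPM use the TMM library sizes. Errors of log2 changes are standard errors from the F statistic. The code was tested on simulated data. No 2 libraries held the same values: any pair of replicates differed in at least 13635 genes.

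The 7 members and the lists of receptors, cytokines, signalling genes and cell markers were chosen with earlier results of these data known. All members are named, and from each list the receptors and up to 3 called genes with the smallest p. The most alike genes are the 3 with the highest Pearson correlation. Alternatives were DESeq2 (1.42.0), its size factors, no filter, no plate term, each time or plate alone, single probes, and leaving out libraries. The labels number the animals and give no dosing batch, and p-values measure the spread between these mice. Ratios with a counting interval, and limits for groups with no count, use raw library totals and not TMM sizes. Counting intervals and limits cover counting error only.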

Additional observations from a re-analysis of the deposited data

Results flagged for a closer look

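Single mice stood apart from their group in 14 gene and group values among those with a mean of 1 CPM or more, 12 at the high and 2 at the low end. These were 10.2% of the values checked. The limit used is passed in about 1 in 20 groups of normally distributed values, and its rate for CPM was not determined. The gap to the nearest other mouse, relative to the group's range, was the measure.

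The widest gap was that of Cxcl2 in flaming eucalyptus replicate 1 at 24 h, with 280.5 CPM and the next mouse at 4.43 CPM. Some mice stood apart in several members at 4 h. Flaming pine replicate 6 was highest in Cxcl1 (31.67 CPM, next 12.4), Csf2 (12.25 CPM, next 5.34) and Cxcl3 (3.801 CPM, next 1.13). Flaming eucalyptus replicate 2 was highest in Cxcl1 (42.64 CPM, next 14.6) and Csf2 (12.95 CPM, next 6.18). Smoldering pine needles replicate 1, the only mouse of its group on plate 1, was highest in Cxcl1 (31.58 CPM, next 14.2) and Cxcl2 (29.13 CPM, next 10.4).

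The others were single. At 4 h Cxcl3 was high in smoldering eucalyptus replicate 1 (4.33 CPM, next 0.773), Cxcl5 in smoldering red oak replicate 4 (34.18 CPM, next 15.8) and Cxcl2 in saline replicate 6 (19.9 CPM, next 7.47), and Csf1 was low in saline replicate 1 (30.02 CPM, next 81.04). At 24 h Cxcl5 was high in smoldering eucalyptus replicate 2 (69.59 CPM, next 30.997), and Cxcl1 was 0 in smoldering pine replicate 4 (next 1.99), one of the libraries with few detected genes.

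A difference among the 10 smokes was called by edgeR's quasi-likelihood test in Csf2 at 4 h (adjusted p = 0.0362), where 0.609% of all genes were. At 24 h it was called in Cxcl2 (6.35e-05), Cxcl5 (0.00184) and Cxcl3 (0.016), where 18% of all genes were. The Csf2 call was lost with DESeq2 size factors and without flaming peat replicate 1, 2, 3 or 4. The Cxcl2 and Cxcl3 calls were lost without flaming eucalyptus replicate 1, and the Cxcl5 call was kept.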

How the results depend on the processing

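Of 416 recomputed values of 22 single results, 405 kept their direction and side of the threshold, 11 lost the call and 0 reversed. All 11 were Cxcl1, Cxcl2 or Csf2 after flaming peat at 4 h. Leaving out 1 mouse at a time left 0 to 3 of the 3 member and smoke pairs called at 4 h: 1, Csf2, without saline replicate 2, 3 or 5, and 0 without flaming peat replicate 3. At 24 h 1 pair in place of 0, Cxcl2 after flaming eucalyptus, was called without a plate term and by DESeq2. Flaming against smoldering gave 1 call in place of 0 with single probes at 4 h (Csf1). At 24 h it gave 1 without the libraries of few genes and 1 by DESeq2 (Cxcl2). In edgeR without flaming eucalyptus replicate 1 this Cxcl2 change was 0.46 and was not called. Among the smokes at 4 h the 1 call became 0 with DESeq2 size factors, 4 with each time alone and without the libraries of few genes, 2 by DESeq2, and 0 to 1 leaving out 1 mouse. At 24 h the 3 calls became 1 without flaming eucalyptus replicate 1. The causes were not tested. The share of positive pairs stayed between 61 and 63 of 70 at 4 h and between 38 and 46 at 24 h over 12 alternatives. The change of Csf1 in flaming red oak hearts stayed between 0.62 and 0.79 in 15 alternatives. The alternatives with a single time or plate give no value for changes over time.

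No paired analysis was possible because the replicate numbers only name the mice of a group in order and the animal numbers are not shared between the groups compared. Hearts and 24 h lungs do come from the same mice, but no test compared heart with lung. Csf3 and Cxcl3 outside LPS rest mostly on few counts. The alternatives without flaming eucalyptus replicate 1 and without single flaming red oak hearts were chosen after seeing the data.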

Other observations

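Genes beside the chemokine members on chromosome 5 were chosen by position, after the members' values were seen. Under LPS, 0 of 4 tested neighbours were called at 4 h (1 at an unadjusted p under 0.05) and 0 of 4 at 24 h (0 at that level) by edgeR's quasi-likelihood test. Over all genes 8.98% were called at 4 h and 12.1% at 24 h, so a count of 0 among 4 genes does not set the neighbours apart. Rassf6 changed by 1.05 ± 0.51 at 4 h (adjusted p = 0.225), Pf4, the platelet factor, by -0.57 ± 0.51 (adjusted p = 0.616), Cxcl15, lungkine, by 0.84 ± 0.96 (adjusted p = 0.72) and Mthfd2l by 0.39 ± 0.56 (adjusted p = 0.788).

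Among listed pathway genes, Nfkb2 (0.67 ± 0.18, adjusted p = 0.0242), the receptor Tnfrsf1b (0.44 ± 0.12, adjusted p = 0.0283) and Csf2rb (0.41 ± 0.12, adjusted p = 0.0427) were called higher after flaming than smoldering smokes at 4 h, where 1.72% of all genes were. They were 1 of 9 NF-kB and mRNA decay genes, 1 of 8 sensing and signalling genes and 1 of 7 receptors. Of 6 inducing cytokines 0 were called, and 1 had an unadjusted p under 0.05, as did 19.2% of all genes. The list medians were 0.25, 0.16, 0.30 and 0.21 in that order, against -0.0033 over all genes (log2).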
